A study of Mus musculus with 22 samples.

Results

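Serotonin is a monoamine best known as a neurotransmitter, but most of it in the body is made outside the brain. Its synthesis starts with the hydroxylation of tryptophan, the rate-limiting step, which is performed by tryptophan hydroxylase 1 (Tph1) in peripheral cells and by tryptophan hydroxylase 2 (Tph2) in serotonergic neurons. Aromatic L-amino acid decarboxylase (Ddc) then turns 5-hydroxytryptophan into serotonin, monoamine oxidase A and B (Maoa and Maob) on the outer mitochondrial membrane break it down, and the Gq-coupled receptors Htr2a and Htr2b are among those through which cells sense it. In adipose tissue, peripheral serotonin is known to favor lipid storage and to restrain thermogenesis. These 7 genes were taken by name from the 23420 genes of the count table, and all 7 were present. Tph2 was selected on its measured read counts in these same data, which were high in the control fat of obese mice, and the other 6 genes were chosen by their role, so the changes of Tph2 are given below as a description and without a test.

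RNA was sequenced from the inguinal/mammary white adipose tissue (IWAT) of 11 wildtype female C57Bl/6 mice, 5 fed a chow diet (lean) and 6 fed a high fat diet (obese) for 16 weeks. At an age of about 20 weeks, each mouse had received E0771 cells, a breast cancer line derived from a C57Bl/6 mouse, in PBS and Matrigel in its left pad (tumor-associated IWAT) and the same solution without cells in its right pad (control IWAT). Both pads of every mouse were sequenced 2 weeks later, giving 22 libraries in 4 groups: lean control and lean tumor-associated (n = 5 each) and obese control and obese tumor-associated (n = 6 each). The lymph node, the tissue sheet around the tumor and the most peripheral fat had been cut away, the control pad was the opposite pad of a tumor-bearing animal, and mice are named below by diet and label number (lean mouse 0 and obese mouse 0 are different animals).

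The libraries held 5759775 to 8598108 reads assigned to genes, and no pair of libraries within a group was alike to within counting noise. Levels are given as CPM, the reads of a gene relative to the TMM-scaled total of its library. The summed level of 8 adipocyte markers was 7124 to 22678 CPM in the lean libraries and the obese control libraries, while the 6 tumor-associated libraries of obese mice ran from 11217 down to 2976 in obese mouse 0 and 1766 in obese mouse 4. The obese tumor-associated libraries also stood apart on the first principal component, which held 45.7% of the variance (27.2 to 148 against -59.0 to 1.32 in the other 16). The sum of 6 proliferation markers was 485 to 1680 CPM there, with the highest sums in obese mice 4 and 0, against 112 to 256 in obese control, 145 to 491 in lean tumor-associated and 39.9 to 220 CPM in lean control IWAT, and 6 of 6 were called higher in both comparisons of obese tumor-associated IWAT. Among the obese control libraries, mice 1 and 3 had sums of 5 B cell markers of 473 and 439 CPM against 2.00 to 10.5 CPM in the other 4, and mouse 1 had a sum of 5 skeletal muscle markers of 549 CPM. Since the tissue was sequenced in bulk, fewer cells of a type and less RNA per cell cannot be told apart.

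In obese IWAT the neuronal-type hydroxylase gene Tph2 was the predominant one, and in lean IWAT it was Tph1. Tph1 (ENSMUSG00000040046) lies on the minus strand of chromosome 7 at 46644641 to 46672537 in GRCm38, and Tph2 (ENSMUSG00000006764) on the minus strand of chromosome 10 at 115078641 to 115185022. The 250 bases upstream of their RefSeq starts are shown because between tumor-associated pads the levels of this gene pair differed with diet in opposite directions. Capitals mark a TATA box core (TATAAA) in the Tph2 window and, in the window of the second Tph1 start, which lies inside the gene, a CCAAT box (read as ATTGG) and GC boxes (GGGCGG, read as CCGCCC), each searched on both strands.

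Tph2, chr10:115185023-115185272, minus strand: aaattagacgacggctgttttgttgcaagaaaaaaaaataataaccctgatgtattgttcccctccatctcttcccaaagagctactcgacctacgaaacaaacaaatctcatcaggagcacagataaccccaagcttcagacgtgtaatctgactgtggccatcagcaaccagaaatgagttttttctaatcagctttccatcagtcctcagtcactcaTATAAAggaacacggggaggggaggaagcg
Tph1 first start, chr7:46672538-46672787, minus strand: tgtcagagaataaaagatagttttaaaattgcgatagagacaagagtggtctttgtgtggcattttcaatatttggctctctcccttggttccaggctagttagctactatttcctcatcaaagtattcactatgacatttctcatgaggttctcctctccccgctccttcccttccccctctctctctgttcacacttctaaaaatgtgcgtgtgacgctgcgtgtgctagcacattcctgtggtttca
Tph1 second start, chr7:46667378-46667627, minus strand: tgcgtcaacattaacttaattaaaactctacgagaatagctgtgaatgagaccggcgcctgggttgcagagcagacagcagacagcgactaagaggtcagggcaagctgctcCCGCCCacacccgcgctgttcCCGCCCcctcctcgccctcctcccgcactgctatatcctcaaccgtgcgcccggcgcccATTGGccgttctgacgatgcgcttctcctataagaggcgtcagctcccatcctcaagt

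The TATAAA of the Tph2 window began 30 bases before its start. TATAAA was found in 12.4% of the 32851 RefSeq windows of the same length, CCAAT in 33.8% and GGGCGG in 32.7%, so none of these matches was rare. The windows at both Tph1 starts had no TATAAA, and the first Tph1 start had none of the 5 motifs searched, which also included the E box CACGTG (6.02% of windows) and the cAMP response element TGACGTCA (1.55%). A GC content of 43.6% was found in the Tph2 window and in the first Tph1 window, against 58.8% in the second Tph1 window and a median of 52.4% over all windows.

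Tph2 was at the edge of detection in lean control IWAT, with 0 CPM in lean mouse 0, 0.700 in lean mouse 2, 0.153 in lean mouse 3, 0.176 in lean mouse 6 and 0.339 in lean mouse 9. These levels rest on 8 reads in all, and the count of 0 in lean mouse 0 allows up to 0.348 CPM (3 counts). In lean tumor-associated IWAT the levels were 1.67, 2.02, 1.36, 0.515 and 0.463 CPM in the same order of mice, from 41 reads. Tph2 was therefore detected in every lean tumor-associated library, and it was higher than in the opposite pad in 5 of 5 lean mice.

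In obese control IWAT, Tph2 ranged from 11.9 CPM in obese mouse 2 to 104 CPM in obese mouse 4, with a median of 44.6. In obese tumor-associated IWAT it ranged from 6.76 CPM in obese mouse 4 to 44.9 CPM in obese mouse 8, with a median of 16.4. All 12 obese libraries were above all 10 lean libraries, and the tumor-associated pad was the lower one in 6 of 6 obese mice. Obese mouse 4 showed the widest gap between pads (104 against 6.76 CPM) and obese mouse 1 the narrowest (22.4 against 21.1 CPM).

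The obese control libraries held 2062 Tph2 reads against 8 in the lean control libraries, a ratio of 196 after scaling for depth, with an exact 95% interval of 99.3 to 455 that covers counting error only. This is the difference for which Tph2 was chosen, and the fitted log2 fold change was 7.53 (SE 0.82). Between the tumor-associated pads, which share no library with that contrast but come from the same mice, the reads were 937 against 41 and the ratio 18.3 (13.4 to 25.6). There the fitted log2 fold change was 4.14 (SE 0.66). Between pads, the fitted change of Tph2 was 2.17 (SE 1.05) in lean mice and -1.22 (SE 0.48) in obese mice, and all 4 changes are given without a test. The control libraries entered the choice of the gene, and Tph2 passed the filter on low counts through the obese libraries, since 0 of the lean control and 2 of the lean tumor-associated libraries reached the filter level of 1.44 CPM.

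Between tumor-associated pads, Tph1 was lower in obese mice. In lean control IWAT it was at 13.1, 9.10, 15.9, 23.2 and 21.9 CPM (lean mice 0, 2, 3, 6 and 9), and in lean tumor-associated IWAT at 8.33, 13.7, 18.2, 37.5 and 22.2 CPM. In obese control IWAT its lowest level was 2.15 CPM, its median 7.55 and its highest 29.9 CPM, in obese mouse 0. In obese tumor-associated IWAT it ran from 0.812 CPM in obese mouse 4 to 4.64 CPM in obese mouse 8, with a median of 3.08. Every obese tumor-associated library was below every lean library, whereas obese control IWAT overlapped with both lean groups.

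Tph1 fell by 2.80 on the log2 scale (SE 0.55, adjusted p = 0.000424 in edgeR's quasi-likelihood test with Benjamini-Hochberg adjustment over all 14458 genes tested) from lean to obese tumor-associated IWAT, a 6.96-fold lower level. It also fell by 1.88 (SE 0.53, adjusted p = 0.00565) from control to tumor-associated IWAT of obese mice, with the lower value in the tumor-associated pad of 5 of 6 mice; the exception was obese mouse 8 (2.15 in the control and 4.64 CPM in the tumor-associated pad). Neither the pads of lean mice (log2 fold change 0.27, SE 0.53, adjusted p = 0.950) nor the control pads of lean and obese mice (log2 fold change -0.65, SE 0.51, adjusted p = 0.417) gave a call. The intervals of 2 SE around these changes, -0.79 to 1.32 and -1.67 to 0.37, leave room for changes of more than 2-fold. Without the control library of obese mouse 0, which held the highest obese level, the fall between the obese pads was 1.24 on the log2 scale (adjusted p = 0.0306). With the mouse as a block in edgeR, the change between the obese pads was -1.53 (adjusted p = 0.0400). The Tph1 response to the tumor was 2.15 lower on the log2 scale in obese than in lean mice (SE 0.75, adjusted p = 0.0701), which did not pass the threshold in edgeR. With DESeq2 the same difference had an adjusted p of 0.0353.

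Per length of exons, the scale on which different genes can be compared, Tph1 had a mean of 2.70 ± 0.96 RPKM (SD, n = 5) in lean control and 3.24 ± 1.79 in lean tumor-associated IWAT, against 0.0950 ± 0.0927 and 0.418 ± 0.241 RPKM for Tph2. In obese control IWAT the means were 1.72 ± 1.64 RPKM for Tph1 and 17.2 ± 11.7 for Tph2 (n = 6), and in obese tumor-associated IWAT 0.462 ± 0.231 and 7.41 ± 5.35. Tph2 made up 0 to 14.2% (median 2.02%) of the summed per-length level of both hydroxylases in lean control, 2.86 to 30.0% (median 13.8%) in lean tumor-associated IWAT. In the obese libraries it made up 67.7 to 98.6% (median 93.5%) in control and 86.7 to 95.8% (median 94.3%) in tumor-associated pads. The share did not overlap between lean and obese libraries in either pad. Since Tph2 was chosen for its level in obese control fat, the share there is a description.

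Mammary epithelium lies within this fat pad in female mice, and its markers were lower together with Tph1 in obese tumor-associated IWAT. Within the lean control libraries the order differed. The highest marker sum, in lean mouse 0 (1186 CPM), came with 13.1 CPM of Tph1, and the lowest, in lean mouse 9 (716 CPM), with 21.9 CPM. The summed level of 6 epithelial markers (Epcam, Krt8, Krt18, Krt5, Krt14 and Cdh1) was 716 to 1186 CPM in lean control, 708 to 1382 in lean tumor-associated, 283 to 717 in obese control and 163 to 370 CPM in obese tumor-associated IWAT. Between the tumor-associated pads 6 of 6 were called lower in obese mice, and between the pads of obese mice 5 of 6 were called lower on the tumor side, the exception being Krt8. Between the control pads, where Tph1 was not called, 2 of 6 were called lower in obese mice. Between the lean pads 0 of 6 were called. The 5 genes whose log2 CPM followed Tph1 most closely over the 22 libraries were Kcnk1, Perp, Trp63, Fnbp1l and Itgb6 (Pearson r from 0.91 to 0.90). Of these, Trp63, a transcription factor of basal epithelium, and Itgb6, an epithelial integrin subunit, are known from epithelial cells. The part of epithelium in the Tph1 values was not tested.

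**Figure D1:**
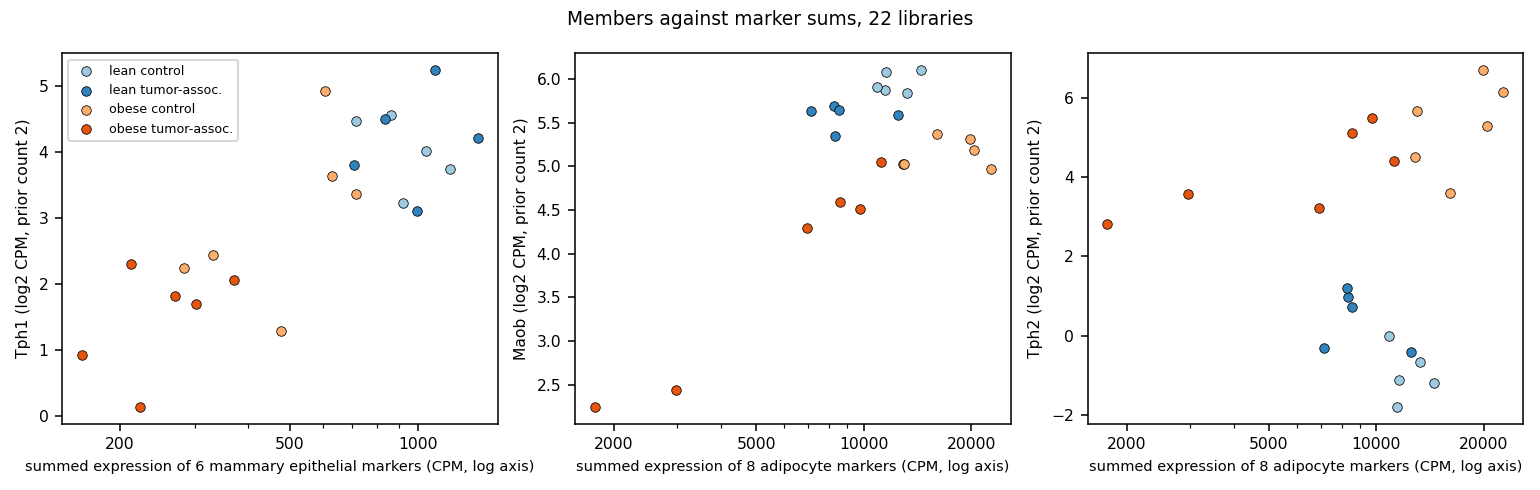
Expression of Tph1 against the summed level of 6 epithelial markers, and of Maob and Tph2 against that of 8 adipocyte markers, for the 22 libraries. The vertical axes are log2 CPM with a prior count of 2 and the horizontal axes are CPM on a log axis. Tph1 is low where the epithelial sum is low, and the obese tumor-associated libraries of mice 0 and 4 hold the lowest Maob and adipocyte sums. Tph2 is higher in obese than in lean libraries, the difference for which it was chosen in control fat. The part of adipocytes in the Tph2 values was not tested.

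Mast cells make serotonin with Tph1 in rodents, and the summed level of 9 mast cell markers was 189 to 254 CPM in lean control, 227 to 449 in lean tumor-associated, 155 to 263 in obese control and 61.2 to 178 CPM in obese tumor-associated IWAT. Kit, a receptor that other cells of the pad also express, made up much of this sum, with means of 159, 153, 109 and 39.8 CPM in the same order of groups. Without Kit the sum of the other 8 was 37.1 to 94.3, 80.3 to 307, 58.3 to 127 and 46.1 to 140 CPM. Between the tumor-associated pads 4 of 9 markers were called lower in obese mice (Kit, Cpa3, Cma1 and Mcpt4), and Tph1 was lower too. Between the obese pads, where Tph1 was also called lower, Kit was the 1 of 9 called lower. Between the lean pads, where Tph1 was not called, 2 of 9 were called higher (Cma1 and Fcer1a), and between control pads 1 of 9 (Tpsab1). The genes of sympathetic nerve fibers and other neurons are relevant to Tph2. The summed level of 8 neuronal markers was 4.22 to 6.95 CPM in lean control, 8.69 to 16.2 in lean tumor-associated, 6.73 to 11.5 in obese control and 10.6 to 21.5 CPM in obese tumor-associated IWAT. Dbh, a defining marker of noradrenergic neurons, had 3 reads over the obese control libraries and 0 in the other groups. Slc6a2, another marker of this list, had 45 reads in lean control and 149 in lean tumor-associated IWAT. In obese control and obese tumor-associated IWAT it had 54 and 56 reads. Only 4 of the 8 neuronal markers passed the filter, of which 1 was called higher between the control pads. The part of mast cells and neurons in the levels of both hydroxylases was not tested.

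Over the 22 libraries, the genes whose log2 CPM followed Tph2 most closely were Itgad (r = 0.96), Ryr2 (0.94), Mest (0.94), Atp6v0d2 (0.94) and Lipf (0.94). Itgad encodes an integrin alpha subunit of leukocytes, Mest is an imprinted gene linked to adipocyte expansion, and Atp6v0d2 encodes a subunit of the vacuolar proton pump. These correlations share the diet difference among the libraries, and with each group centered on its own mean they were 0.83 for Itgad, 0.51 for Ryr2, 0.67 for Mest, 0.67 for Atp6v0d2 and 0.69 for Lipf. Over the 12 obese libraries alone, Tph2 had r = 0.93 with Itgad, 0.93 with Lipf and 0.85 with Mest.

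**Figure D2:**
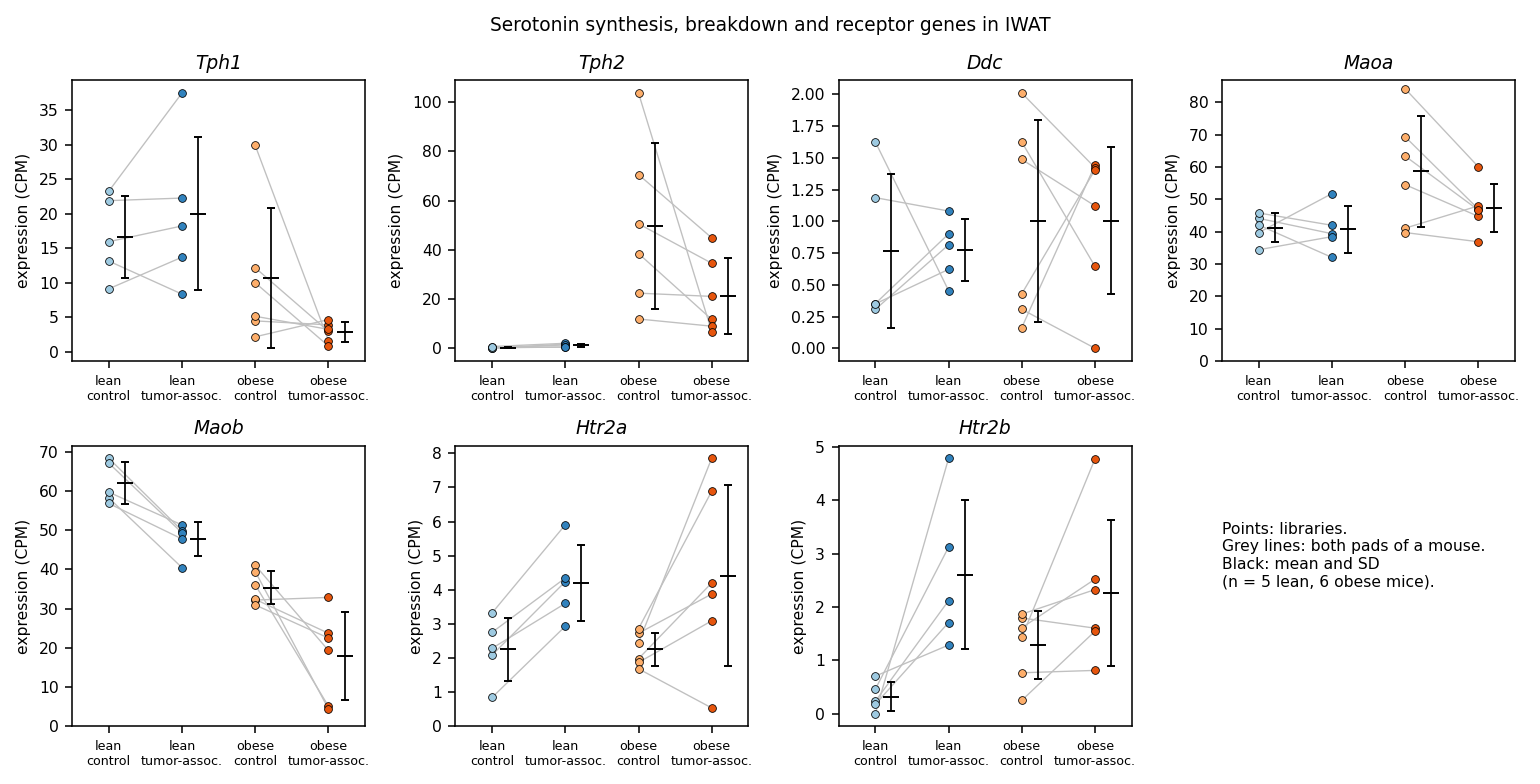
Expression of the 7 genes in each library, in CPM on linear axes. Points are libraries, grey lines join both pads of a mouse, and black marks give the mean and SD (n = 5 lean and 6 obese mice). Tph2 is near 0 in every lean library and reaches 104 CPM in obese control IWAT, Tph1 is lowest in obese tumor-associated IWAT, and Maob steps down from lean control to obese tumor-associated IWAT.

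Ddc (ENSMUSG00000020182, chromosome 11, 11814101 to 11898144, minus strand) performs the step after either hydroxylase and was scarcely detected in any group. Its levels were 1.63, 0.350, 0.306, 0.352 and 1.19 CPM in lean control and 0.454, 0.622, 0.815, 0.901 and 1.08 CPM in lean tumor-associated IWAT. In the obese control libraries they ran from 0.163 to 2.01 CPM (median 0.959) and in the obese tumor-associated libraries from 0 to 1.44 CPM (median 1.26), and all 4 groups overlapped. No library held more than 14 Ddc reads, and the count of 0 in the tumor-associated pad of obese mouse 4 allows up to 0.405 CPM. The log2 fold change between the control pads was 0.36 (SE 0.64, adjusted p = 0.750), and the interval of -0.91 to 1.64 shows that a 2-fold change would not have been detectable at this depth. Per length, Ddc stood at 0.225 ± 0.178 RPKM in obese control IWAT, where Tph2 stood at 17.2 RPKM. The Ddc gene overlaps an antisense RNA, 1700042O10Rik, with which it shares no exon base.

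Maob was lower in obese tumor-associated IWAT than in either group it was compared with, and Maoa was higher in obese than in lean control IWAT. Both genes lie beside each other on the X chromosome on opposite strands, Maoa (ENSMUSG00000025037) at 16619698 to 16687818 and Maob (ENSMUSG00000040147) at 16709282 to 16817366. Maoa is the form that prefers serotonin as its substrate, whereas Maob prefers phenylethylamine.

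Maob was at 58.2, 59.6, 68.3, 67.1 and 56.8 CPM in lean control and at 40.4, 51.3, 49.9, 49.3 and 47.7 CPM in lean tumor-associated IWAT. In obese control IWAT the lowest, median and highest levels were 30.9, 34.2 and 41.0 CPM, and in obese tumor-associated IWAT 4.46, 20.9 and 32.8 CPM. The lean control libraries were above all others and the lean tumor-associated libraries above all but 1 obese control library, that of obese mouse 2 at 41.0 CPM, which exceeded the tumor-associated pad of lean mouse 0 at 40.4 CPM. Within the obese tumor-associated group, obese mice 4 and 0 stood far below the other 4 (4.46 and 5.13 against 19.3 to 32.8 CPM).

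Maob fell by 1.40 on the log2 scale (SE 0.32, adjusted p = 0.00162, edgeR) from lean to obese tumor-associated IWAT, and by 0.97 (SE 0.31, adjusted p = 0.0131) from control to tumor-associated IWAT of obese mice, where 5 of 6 mice had the lower level in the tumor-associated pad. The obese pad difference did not pass when only those groups were fitted (adjusted p = 0.0695). Without the tumor-associated libraries of obese mice 0 and 4, an alternative chosen after the data were seen, the Maob change was -0.96 (adjusted p = 4.15e-05) between the tumor-associated pads and -0.54 (adjusted p = 0.00258) between the obese pads. Between control pads the groups did not overlap, but the change of -0.81 (SE 0.32, adjusted p = 0.0832) missed the threshold in the fit of all 4 groups; with those groups alone the adjusted p was 0.000248. In lean mice all 5 tumor-associated pads were below their control pads, with a fitted change of -0.38 (SE 0.33, adjusted p = 0.723; with the lean groups alone, adjusted p = 0.0186).

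Adipocyte markers moved with Maob between the pads of obese mice, where 7 of 8 were called lower in tumor-associated IWAT, and the same 2 libraries, of obese mice 4 and 0, had the lowest adipocyte sum (1766 and 2976 CPM) and the lowest Maob. Between the control pads the adipocyte markers were mixed, with 2 of 8 called higher and 1 called lower in obese mice. Their sum was 12846 to 22678 CPM in obese and 10880 to 14480 CPM in lean mice, while Maob was lower in every obese library. Means of Cfd (685 against 2985 CPM), Plin1 (617 against 761) and Pparg (167 against 201) were lower in obese mice. Those of Lep, Cidec, Fabp4, Adipoq and Lipe were higher. The genes that followed Maob most closely were Ppp1r3c, Amy1, Cdo1, Slc25a23 and Phyh (r from 0.98 to 0.97), which include a regulator of glycogen synthesis (Ppp1r3c), a cysteine dioxygenase (Cdo1) and an enzyme of peroxisomal fatty acid oxidation (Phyh). Proliferation markers moved the opposite way and were highest in the same 2 libraries. The part of either in the Maob values was not tested.

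Maoa was at 44.1, 39.7, 45.8, 42.1 and 34.4 CPM in lean control and at 39.4, 51.8, 42.0, 32.1 and 38.5 CPM in lean tumor-associated IWAT. The lowest, median and highest levels were 39.7, 59.0 and 84.2 CPM in obese control and 36.9, 46.8 and 60.1 CPM in obese tumor-associated IWAT, and every pair of groups overlapped. Maoa rose by 0.51 on the log2 scale (SE 0.17, adjusted p = 0.0452) from lean to obese control IWAT, a 1.42-fold higher level. This call is fragile: it was lost without any 1 of 14 of the 22 libraries (adjusted p 0.0546 to 0.115), among them each of the 5 lean control libraries, with upper-quartile scaling (adjusted p = 0.0738), with no filter on low counts (0.0624), with at least 10 counts in every library (0.0542) and with only the control groups fitted (0.0554). Between the pads of obese mice the change was -0.31 (SE 0.16, adjusted p = 0.105), lower in 5 of 6 mice, and it passed without the control library of obese mouse 1 (adjusted p = 0.0362) or obese mouse 3 (0.0326), the libraries with the high B cell sums. Without both, an alternative chosen after the data were seen, the change was -0.53 (adjusted p = 0.00443) between the obese pads and 0.71 (adjusted p = 0.00415) between control pads. Between the pads of lean mice (-0.02, SE 0.18, adjusted p = 0.996) and between the tumor-associated pads (0.21, SE 0.17, adjusted p = 0.314) Maoa was not called. Its closest genes were Flot1, Serinc1, Itgb1bp1, Pon2 and Dynlrb1 (r from 0.87 to 0.86), of which Flot1 encodes a membrane microdomain protein and Dynlrb1 a dynein light chain.

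The relation between both oxidases within a library does not depend on how libraries are scaled. The log2 ratio of Maoa to Maob CPM had a mean of -0.59 ± 0.12 (SD, n = 5) in lean control, -0.24 ± 0.25 in lean tumor-associated, 0.68 ± 0.44 (n = 6) in obese control pads and 1.70 ± 1.22 in the tumor-associated pads of obese mice. All 12 obese libraries were above all 10 lean libraries, as the lowest obese value was 0.29 and the highest lean value 0.01. The obese minus lean difference was 1.27 between control pads and 1.94 between tumor-associated pads, each with a two-sided exact permutation p of 0.00433, the smallest that 5 against 6 libraries can give (0.0108 after adjustment over the 5 ratio comparisons). Within mice, the ratio was higher in the tumor-associated pad in 5 of 5 lean mice (difference 0.35, SD 0.20) and in 5 of 6 obese mice (difference 1.02, SD 1.12). Both had a two-sided exact sign-flip permutation p of 0.0625 (adjusted 0.0781), which is the smallest that 5 mice allow, whereas 6 mice could have reached 0.0313. The widest changes, of obese mice 0 and 4, were in the libraries with the lowest adipocyte sums. The pad difference did not differ detectably between obese and lean mice (0.67, exact permutation p = 0.312, adjusted 0.312).

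**Figure D3:**
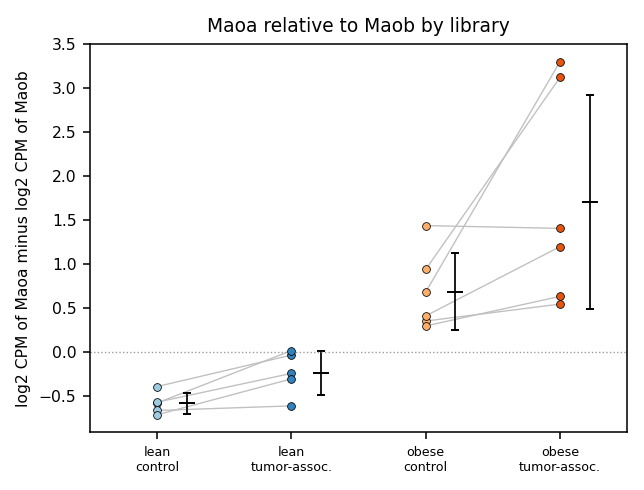
Log2 CPM of Maoa minus log2 CPM of Maob in each library by group. Points are libraries, grey lines join both pads of a mouse, and black marks give the mean and SD (n = 5 lean and 6 obese mice). All obese libraries lie above the lean libraries, and the tumor-associated pads of obese mice 0 and 4 lie at 3.12 and 3.30.

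Htr2b, whose transcript was near 0 in lean control fat, was higher in tumor-associated fat of lean mice. Htr2a (ENSMUSG00000034997, chromosome 14, 74640840 to 74709494, plus strand) and Htr2b (ENSMUSG00000026228, chromosome 1, 86099026 to 86111970, minus strand) are related receptors that activate phospholipase C, and Htr2b is also known from adipocytes as a receptor for gut-derived serotonin. Htr2b lies within Psmd1, a proteasome subunit gene on the opposite strand, with which it shares 252 exon bases. Psmd1 was expressed far above Htr2b (158 to 236 CPM as group means), and the strand setting of the counting is not given in the sources used here, so a Psmd1 contribution to Htr2b reads was not tested.

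Htr2b was at 0.232, 0.175, 0.459, 0.704 and 0 CPM in lean control (10 reads in all) and at 2.12, 1.71, 3.12, 1.29 and 4.79 CPM in lean tumor-associated IWAT (89 reads). The groups did not overlap and the level was higher in the tumor-associated pad of 5 of 5 mice, while the count of 0 in the control pad of lean mouse 9 allows up to 0.508 CPM. The log2 fold change was 2.99 (SE 0.62, adjusted p = 0.00845, edgeR), and with the mouse as a block the call stood (adjusted p = 0.0186). Htr2b reached the filter level of 1.44 CPM in 0 lean control, 4 lean tumor-associated, 3 obese control and 5 obese tumor-associated libraries. It thus entered the tests through groups other than lean control, which limits its p-values against lean control IWAT. DESeq2 gave a log2 fold change of 3.05 with no adjusted p, since its independent filtering set the gene aside. Psmd1 was not called between these pads (log2 fold change -0.10, SE 0.14, adjusted p = 0.903) or between control pads (-0.10, adjusted p = 0.662). It was called higher between the obese pads (0.58, adjusted p = 0.00121) and between tumor-associated pads (0.57, adjusted p = 0.00222), where Htr2b was not called, and in the difference between responses (0.68, adjusted p = 0.0488).

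In obese control IWAT, Htr2b ran from 0.250 to 1.87 CPM (median 1.52), and in obese tumor-associated IWAT from 0.812 to 4.78 CPM (median 1.97). Obese control libraries overlapped with lean control only through obese mouse 3 at 0.250 CPM. The change between control pads was 1.98 (SE 0.63, adjusted p = 0.0342), a call that was lost without any 1 of 7 libraries (lean control mice 0, 2 and 9 and obese control mice 0, 1, 2 and 8, adjusted p 0.0519 to 0.0812). Since 0 lean control and only 3 obese control libraries reached the filter level, Htr2b entered this test mainly through tumor-associated libraries, which limits this p-value. Between the pads of obese mice the change was 0.81 (SE 0.48, adjusted p = 0.155), higher in 5 of 6 mice, and between tumor-associated pads -0.20 (SE 0.48, adjusted p = 0.755). The difference between the lean and obese tumor responses, -2.18 (SE 0.79), had an adjusted p of 0.0765 in edgeR and 0.0484 in DESeq2. Its closest genes were Ecscr, Dhh, Has1, Fbln2 and Ctla2b (r from 0.80 to 0.76), among them an endothelial surface protein (Ecscr), a hyaluronan synthase (Has1) and a fibulin of the extracellular matrix (Fbln2), and with each group centered these values dropped to between 0.38 and 0.57.

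Htr2a was at 2.09, 3.32, 2.76, 2.29 and 0.848 CPM in lean control and at 4.24, 5.91, 4.35, 3.60 and 2.93 CPM in lean tumor-associated IWAT. The obese libraries had a lowest, median and highest level of 1.69, 2.22 and 2.86 CPM in control and 0.541, 4.04 and 7.86 CPM in tumor-associated IWAT. The level was higher in the tumor-associated pad of 5 of 5 lean and 5 of 6 obese mice, the exception being obese mouse 4, whose tumor-associated pad was the lowest of all libraries. The log2 fold change was 0.89 (SE 0.44, adjusted p = 0.325) in lean and 0.95 (SE 0.40, adjusted p = 0.0472) in obese mice, and the difference between diets was 0.00 (SE 0.43) in control and 0.06 (SE 0.40) in tumor-associated pads, with no call. The call in obese mice is fragile, as it was lost with the mouse as a block (adjusted p = 0.0638), with only the obese groups fitted (0.0953), with upper-quartile scaling (0.0597), with no filter on low counts (0.0594), without obese control mice 1 and 3 together (0.0933) and without any 1 of 17 of the 22 libraries (0.0512 to 0.145). It stood without lean control mouse 2 or 9, obese control mouse 8 or obese tumor-associated mouse 3 or 4. The difference between the responses in lean and obese mice was 0.06 (SE 0.59, adjusted p = 0.952). Its closest genes were Mir3109, Pdpn, Tmem45a, Dpysl3 and Alox5 (r from 0.85 to 0.83), of which Pdpn, podoplanin, is a surface protein of fibroblasts and lymphatic endothelium and Alox5 makes leukotrienes.

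Between pads, most macrophage markers were higher in tumor-associated IWAT of both diets, while fibroblast markers were split in obese mice. Of the receptors, Htr2b alone was called between the lean pads and Htr2a alone between the obese pads. The sum of 7 macrophage markers was 614 to 1310 CPM in lean control and 1359 to 2884 in lean tumor-associated, 953 to 1351 in obese control and 1224 to 3917 CPM in obese tumor-associated IWAT, and 5 of 7 were called higher between the lean pads and 6 of 7 between the obese pads. Of 6 fibroblast markers, Col1a1 and Col3a1 were called higher between the pads of both diets, while Dcn and Dpt were called lower between the obese pads. The part of these cells in the Htr2a and Htr2b values was not tested.

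The counts of members called have to be read against how many of the 14458 genes tested were called in the same comparison. Between the pads of lean mice 1 of the 6 members tested (Tph2 left out) was called, Htr2b, which was higher, against 4.18% of all genes (3.27% higher, or 473 of the 605 called; with upper-quartile scaling 382 of 581). The count of 605 ran from 183 without the tumor-associated library of lean mouse 2 to 952 without that of obese mouse 4. In obese mice 3 of 6 were called between pads, Tph1 and Maob lower and Htr2a higher, against 54.5% of all genes (26.8% higher and 27.7% lower). Between control pads 2 of 6 were called, Maoa and Htr2b, both higher, against 17.1% (9.54% higher, or 1380 of 2468; with upper-quartile scaling 1068 of 2514). Both calls of Htr2b were made against lean control IWAT, where 0 libraries reached the filter level for this gene. Between tumor-associated pads 2 of 6 were called, Tph1 and Maob, both lower, against 47.0% (24.7% higher and 22.4% lower). The tumor response differed between diets in 0 of 6 members with edgeR, against 4.92% of all genes (2.58% higher and 2.34% lower). DESeq2 called 2 of 6 (Tph1 and Htr2b), where it called 2365 of the 14458 genes, against 711 with edgeR. The same 2 had an unadjusted p under 0.05 in edgeR, a level for which the share of all genes is not given here. The edgeR share of all genes is unstable, as the 711 genes called became 1 without the tumor-associated library of lean mouse 0 or of obese mouse 0 and 3568 without that of obese mouse 1. In the comparisons of obese tumor-associated IWAT the share of members called did not exceed that of all genes.

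**Figure D4:**
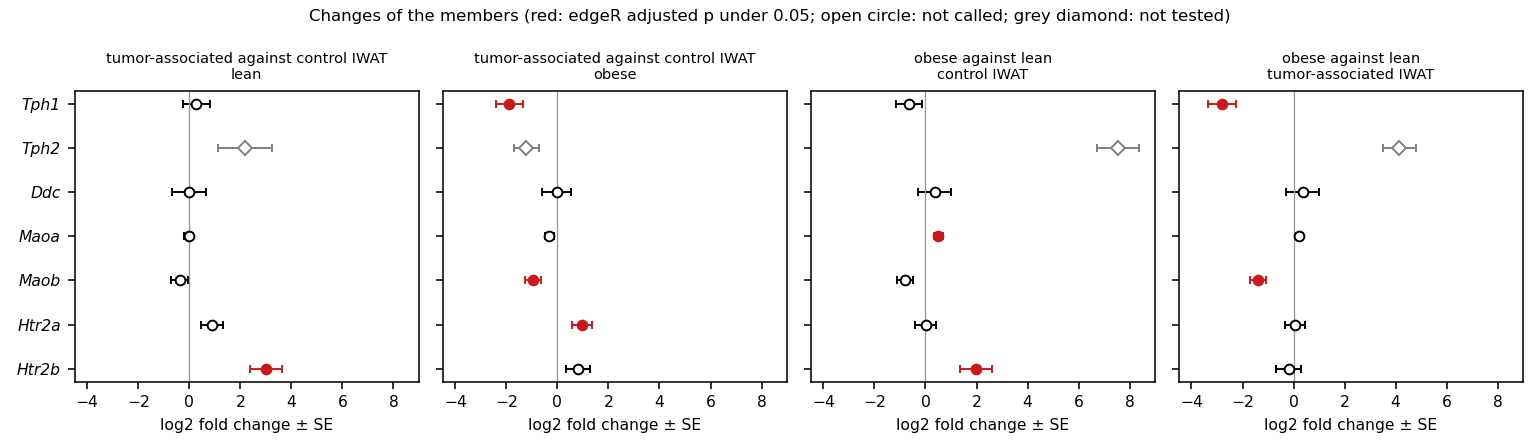
Log2 fold changes of the 7 genes with their standard errors in the 4 comparisons between groups. Red points have an adjusted p under 0.05 in edgeR, open circles do not, and grey diamonds are the Tph2 changes, which were not tested. Tph1 and Maob lie left of 0 in both comparisons that involve obese tumor-associated IWAT, and Tph2 lies at 4.14 and 7.53 in the comparisons of diet.

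A list of 48 further genes of the serotonin pathway was examined, covering the tetrahydrobiopterin cofactor that the hydroxylases need, transport and storage, further breakdown, other receptors, tryptophan supply and the kynurenine route, and related hydroxylases. Of these, 31 passed the filter. The 17 that did not included Slc18a1, a vesicular amine transporter (141 reads over 22 libraries), Aanat and Asmt, the enzymes that turn serotonin into melatonin (4 and 6 reads), Th, tyrosine hydroxylase (3 reads), and 10 serotonin receptor genes, of which Htr4 had the most reads (32). In lean mice 1 of 31 was called between pads, Gch1, against 4.18% of all genes. In obese mice 4 were called higher between pads and 11 lower (48.4%, median log2 fold change -0.22 against -0.02 for all genes), where 54.5% of all genes were called. Between control pads 7 were called higher and 2 lower, and between tumor-associated pads 7 higher and 6 lower. These shares of 29.0% and 41.9% compare with 17.1% and 47.0% of all genes. The tumor response differed between diets in 0 of 31 with edgeR, against 4.92% of all genes. DESeq2 called 1, where it called 2365 of the 14458 genes. Of the 31, 6 had an unadjusted p under 0.05 in edgeR, a level for which the share of all genes is not given here.

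Among the cofactor genes, 6 of 7 were called between the pads of obese mice, 2 higher and 4 lower, against 54.5% of all genes. Of the 2 higher, Gchfr had medians of 0.352 CPM in lean control, 0.909 in lean tumor-associated and 0.452 in obese control IWAT. These are under the filter level of 1.44 CPM. With a median of 2.46 CPM in obese tumor-associated IWAT, Gchfr entered the tests mainly through that group, which limits its p-value. Gch1, GTP cyclohydrolase, which performs the first and rate-limiting step of tetrahydrobiopterin synthesis, rose in both diets. It ranged from 4.20 to 7.04 CPM in lean control and from 10.2 to 14.6 CPM in lean tumor-associated IWAT, and from 6.14 to 10.5 and 14.0 to 19.0 CPM in the obese groups, without overlap between pads. Its log2 fold change was 1.04 (SE 0.17, adjusted p = 0.00134) in lean and 1.01 (SE 0.15, adjusted p = 4.42e-05) in obese mice, and it was higher in the tumor-associated pad of all 5 lean and all 6 obese mice. Pts, which performs the next step of the same route, was lower in obese mice, both in control pads (-0.46, SE 0.13, adjusted p = 0.0175) and in tumor-associated pads (-0.78, SE 0.13, adjusted p = 9.70e-05), without overlap between diets in either pad. Within obese mice it was lower in the tumor-associated pad of 6 of 6 (-0.53, SE 0.12, adjusted p = 0.00137). Pcbd1, which helps to regenerate the cofactor, was at 9.25 to 16.0 CPM in obese control against 1.57 to 5.81 CPM in lean control IWAT (log2 fold change 1.57, SE 0.42, adjusted p = 0.0150).

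Of the genes of tryptophan supply, Slc7a5, the light chain of the large neutral amino acid transporter, ran from 19.9 to 235 CPM in obese tumor-associated IWAT against 6.29 to 32.2 CPM in obese control IWAT (2.97, SE 0.53, adjusted p = 0.000173) and 6.95 to 24.7 CPM in lean tumor-associated IWAT (2.98, SE 0.57, adjusted p = 0.000345). The proliferation markers were higher in the same libraries, and their part in the Slc7a5 values was not tested. Its heavy chain partner Slc3a2 and the related light chain Slc7a8 were higher in obese than in lean control IWAT, by 0.51 (SE 0.14, adjusted p = 0.0194) and 1.11 (SE 0.31, adjusted p = 0.0189). Both calls were lost without the control library of lean mouse 2 or 6 (adjusted p 0.0535 and 0.0655 for Slc3a2, 0.0506 and 0.0568 for Slc7a8). Slc3a2 was also higher in obese than in lean mice between the tumor-associated pads (0.60, SE 0.14, adjusted p = 0.00205). In the breakdown group, 4 of the 5 genes tested were called lower in tumor-associated than in control IWAT of obese mice, against 27.7% of all genes called lower there, among them Sult1a1, a phenol sulfotransferase (-1.41, SE 0.29, adjusted p = 0.000523), which ran from 19.2 to 130 CPM against 153 to 224 CPM. Among the other receptors, Htr1d, an inhibitory Gi-coupled receptor, ran from 0 to 0.517 CPM in obese against 0.777 to 2.32 CPM in lean tumor-associated IWAT (-2.87, SE 0.55, adjusted p = 0.000355). These levels rest on 10 and 63 reads. Every obese tumor-associated level was below the filter level of 1.44 CPM, so Htr1d entered the tests through other groups, which limits this p-value. Its medians were 1.86 CPM in lean control and 2.16 CPM in lean tumor-associated IWAT.

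**Figure D5:**
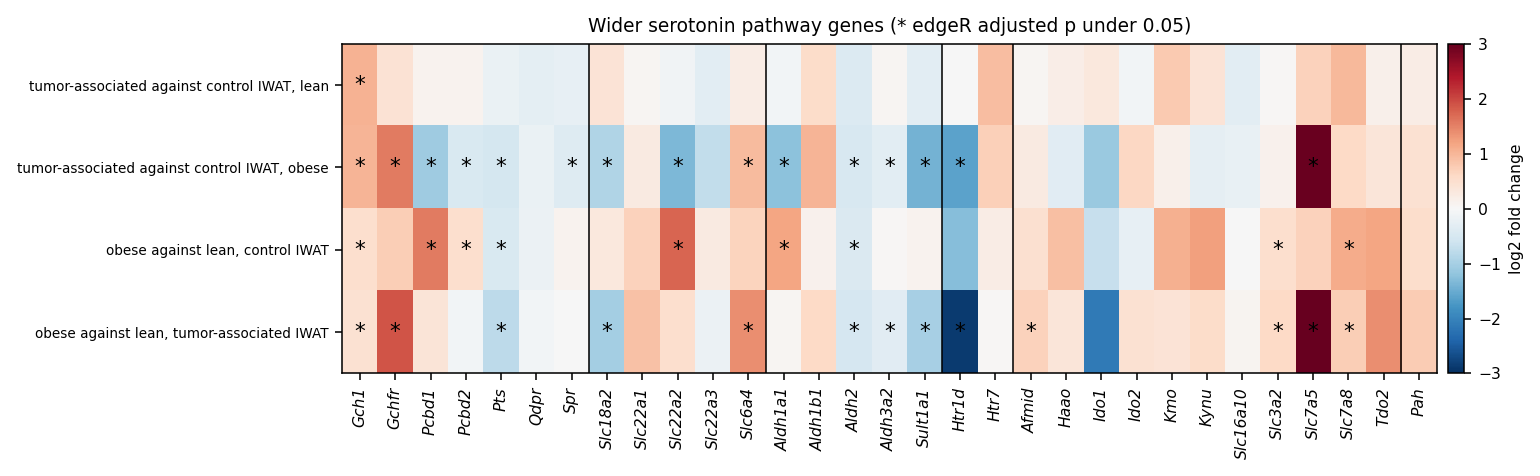
Log2 fold changes of the 31 tested genes of the wider serotonin pathway list in the 4 comparisons between groups, as colors from -3 to 3. Stars mark an adjusted p under 0.05 in edgeR, and black lines part the sublists (cofactor, transport and storage, breakdown, receptors, tryptophan supply and kynurenine route, related hydroxylases). Gch1 is the 1 starred gene between the pads of lean mice, and Slc7a5 is darkest in both comparisons of obese tumor-associated IWAT.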

How the data were processed

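The analysis started from the deposited table of raw read counts per gene, which the authors made with HTSeq from reads aligned to mm10. Per the labels, total RNA was depleted of ribosomal RNA, and the submitters' processing notes name FastQC, STAR 2.4.0f and HTSeq. The annotation, HTSeq version and strand setting are not given in the sources used here. The 5 HTSeq total lines were left out of library sizes and tests (reads in no feature made up 38.5% to 48.8% of a library's lines). Samples were grouped by the diet and tumor labels.

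All 22 libraries were fitted as 4 groups in edgeR 4.0.16 (R 4.3.3; TMM scaling, filterByExpr by group, quasi-likelihood test, Benjamini-Hochberg adjustment over 14458 genes, threshold 0.05, intervals of 2 SE). CPM used TMM-scaled library sizes, and log2 CPM a prior count of 2. RPKM used exon lengths of GENCODE M21 on GRCm38, the build called mm10. A 95% interval or a floor of 3 counts covers counting error only. Ratios of Maoa to Maob were compared by two-sided exact permutation tests. Promoter windows came from RefSeq on GRCm38.p6, where 6 of the 7 members had 1 or more. The fits and exact tests were tested on simulated data with known answers.

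The 7 members and all lists were chosen with earlier results of these data known, and 1 gene of the wider list is not reported here. The genes named beside them were, in the wider list, the 4 with the smallest p among those called in each comparison and, for each member, the 5 with the highest Pearson r of log2 CPM. The markers Krt8, Dbh, Slc6a2, Kit and the other mast cell and fibroblast markers were named after their values were seen. So were the single adipocyte markers, Gchfr, Slc22a2 and the low genes of the wider list. Alternatives were DESeq2 1.42.0, upper-quartile scaling, other filters, fits of only the groups compared, the mouse as a block, each library left out in turn and, added after the data were seen, fits without the obese tumor-associated libraries with the lowest adipocyte marker sums and without the obese control libraries with the highest B cell marker sums. Tph2 was planned to be tested between tumor-associated pads, but that test was dropped because the gene passed the filter through the obese libraries. Tests of Htr2b and Htr1d were kept, although no lean control library for Htr2b and no obese tumor-associated library for Htr1d reached the filter level. Those of Gchfr and Slc22a2 were kept too, although only in obese tumor-associated IWAT for Gchfr and obese control IWAT for Slc22a2 was the median above it. Same-numbered pads come from the same mouse. Their deviations from group means correlated with a median r of 0.51 in lean mice (5 of 5 over 0.1) and 0.17 in obese mice (4 of 6). The edgeR p-values measure the spread between the libraries within the 4 groups. Without the block, their comparisons between pads do not use this pairing. The exact p-values of the ratio measure the spread between these mice.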

Additional observations from a re-analysis of the deposited data

Results flagged for a closer look

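Of the 32 groups of member values on the log2 CPM scale and ratio values that were checked for a sample far from the rest, 1 stood out: Ddc in the tumor-associated pad of obese mouse 4, with 0 reads, whose gap to the nearest library was 0.655 of the range of the group. By chance about 1 in 20 groups would do so.

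The fitted change of Tph2 with the tumor was 3.39 lower on the log2 scale in obese than in lean mice (-3.39, SE 1.14), as it was higher in the tumor-associated pad of 5 of 5 lean mice and lower in that of 6 of 6 obese mice. This difference was not tested, since the control libraries entered the choice of Tph2, and the lean values rest on 8 and 41 reads.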

How the results depend on the processing

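Of 75 gene results and their 2143 alternative values, 2014 were counted as unchanged, 104 lost a call, 25 gained one and none changed the sign of a call. Unchanged means the same side of the threshold for a tested value, and does not mean that the direction was kept. The uncalled change of Tph1 between the lean pads, for example, was 0.27 and reached -0.09 with a single library left out. Members called between the lean pads numbered 0 with DESeq2, where Htr2b had no adjusted p, and 0 with at least 10 counts in every library, a filter that removes Htr2b. That filter left 1 call between the obese pads, 0 between control pads and 1 between tumor-associated pads. Between control pads 1 member was called with upper-quartile scaling, with no filter and with only the groups compared, and the last of these left 1 between the obese pads. DESeq2 called 2 members for the difference between tumor responses.

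In the wider list, DESeq2 called 2 genes between the lean pads and 1 for the difference between responses. Only the groups compared gave 3 (lean pads) and 7 (obese pads), and the filter of at least 10 counts gave 8 between tumor-associated pads. Without the obese tumor-associated libraries with the lowest adipocyte sums, the counts were 4 (lean pads) and 8 (obese pads), and without the obese control libraries with the highest B cell sums 5 (control pads). The cause was not tested where the alternative's own construction does not show it.

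Leaving out single libraries gave 1 to 1 (lean pads), 2 to 3 (obese pads), 0 to 3 (control pads), 2 to 2 (tumor-associated pads) and 0 to 1 (difference between responses) members, and in the wider list 1 to 2, 9 to 16, 3 to 9, 9 to 13 and 0 to 2. With the mouse as a replicate block, 1, 2 and 0 members were called between the lean pads, between the obese pads and for the difference between responses, and the block ended no member's call other than that of Htr2a. With no replicate block, the ratio difference of 0.35 between the lean pads had an exact permutation p of 0.0317 and that of 1.02 between the obese pads 0.0866.

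Over all genes, calls between the lean pads rose from 605 to 918 with DESeq2, 1437 with only the groups compared and 1175 without the low-adipocyte libraries, and those for the difference between responses went from 711 to 2365, 18 with no filter and 199. Depth limits Ddc, Htr2b and lean Tph2, which rest on 0 to 31 reads a library in lean mice.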
